A study of Mus musculus with 7 samples.

Results

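The mesenchymal neural crest cells of 1 control and 1 Tbx1 null library at embryonic day 9.5 (E9.5) were compared over all genes. Cells were chosen by their own counts, and a cell was taken as mesenchymal when it had at least 1000 detected genes, at most 10% of its unique molecular identifiers (UMIs) from mitochondrial genes, at least 3 UMIs of Twist1, Prrx1 and Prrx2 together and no UMI of Sox10. This rule gave 10114 cells of the 19189 that passed the quality filter at E9.5, and of 65862 barcodes in the 7 libraries of the series, of which 25503 met the same rule. The control library held 4055 of its 8612 filtered cells (47.1%, 95% exact binomial interval 46.0 to 48.1%) and the Tbx1 null library 6059 of 10577 (57.3%, 56.3 to 58.2%). All intervals given here cover counting error alone, because each genotype was 1 library at this stage, and no test between genotypes was possible. UMIs were summed over the cells of a library, so that fewer cells expressing a gene and less RNA per cell cannot be told apart in a sum.

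The study followed neural crest cells, their heart derivatives and their response to loss of Tbx1 by droplet single-cell RNA sequencing from E8.5 to E10.5. Both libraries at E9.5 came from embryos of a mixed Swiss-Webster background that carried Wnt1-Cre and the ROSA-EGFPf reporter, each as a single copy, from which EGFP-positive, DAPI-negative cells were sorted. In this system Cre is driven from the Wnt1 regulatory region in the dorsal neural tube, so that its descendants keep the green label. The null library added the Tbx1 mutation. Its title reads null while its genotype field reads Tbx1+/-, and the study's summary of its libraries gives Tbx1-/-. That summary describes control tissue as the pharyngeal region of the first to the third arches with the heart and neural tube. It describes null tissue as the pharyngeal region with the first arch, the heart and the neural tube. The study's methods give a single dissection for this stage, from the first arch onward with the heart. Each library was a pool of embryos. The control library was made with kit version 3.1 and the null library with version 3. Cell viability in the study's summary was lower for the control library. Genotype, kit, viability, pool and any difference in dissected region therefore cannot be told apart.

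Neural crest cells leave the dorsal neural tube, fill the pharyngeal arches as mesenchyme and form facial skeleton, the smooth muscle of the arch arteries and the septum of the outflow tract. Tbx1, the main gene of 22q11.2 deletion syndrome, encodes a T-box transcription factor of the pharyngeal mesoderm, endoderm and ectoderm rather than of the crest itself, and its loss leaves the caudal arches underdeveloped. Crest cells receive signals from these tissues, among them bone morphogenetic proteins (BMPs), which act through Smad proteins on Id and Msx genes, and fibroblast growth factors (FGFs), which act through MAP kinases on Spry, Dusp and Etv genes.

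The label was checked first on the genes that the rule used, which are given as a description. Twist1 UMIs were found in 97.0% of control and 97.7% of null members, Prrx1 in 90.6% and 91.4%, and Prrx2 in 95.9% and 97.4%. The median member had 29 marker UMIs in the control and 32 in the null, while 154 and 201 members lay just inside the limit with 3 and 255 and 319 cells without Sox10 lay just outside it with 2. A further 1509 control and 1519 null cells with enough marker UMIs were left out for a Sox10 UMI. Tbx1 itself was near the detection limit, with 110 UMIs over all control members and 126 over all null members (1.08 and 0.872 CPM, the library-scaled count; log2 ratio -0.32, interval -0.70 to 0.07). The gene lies at chr16:18580979-18590671 on the minus strand, and its UMIs do not tell the genotypes apart. Its 18 measured neighbours on chromosome 16 lay between -0.25 and 0.35.

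Members summed to 103475045 UMIs in the control and 141601742 in the null, with a median of 24946 and 22441 UMIs per cell. The mitochondrial share was 1.91% and 2.67% and the ribosomal protein share 28.6% and 27.5%. The pools differed in sex, since Xist UMIs were found in 0.0740% of control and 60.6% of null members, and UMIs of Y-linked genes in 77.2% and 37.3%. The 2 libraries shared 27 barcodes. Haemoglobin and other blood genes summed to 0.306 CPM in the control and 0.844 CPM in the null, with Hbb-bs and Hbb-bt at 0 in both, and immune genes to 0.542 and 0.761 CPM. The 6 endothelial genes summed to 58.8 and 57.5 CPM, nearly all of it Egfl7, and the 7 epithelial genes to 23.0 and 21.3 CPM. The 7 heart muscle genes summed to 23.7 and 34.5 CPM, with Tnnt2 at 3.59 and 6.19 CPM and Myh7 at 2.86 and 5.31 CPM. Neural progenitor genes summed to 74.0 and 67.8 CPM, neuronal genes to 20.9 and 19.8 CPM, glial crest genes to 28.8 and 29.1 CPM and pharyngeal mesoderm genes to 2.77 and 3.1 CPM. Blood genes had the largest ratio among these sums and heart muscle genes the largest difference in CPM, and their part in the results was not tested.

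Levels are CPM scaled by TMM, a trimmed mean of the ratios between libraries, and a log2 ratio is null over control after 0.5 UMIs were added to each sum. Levels given for cells split by Xist and Y-linked UMIs are scaled by total UMIs instead, while log2 ratios of null over control in such cells use TMM. Among 10157 genes with a mean of at least 2 CPM, 119 were at least 1.5-fold higher in the null (1.17%) and 262 at least 1.5-fold lower (2.58%). A log2 ratio above 0 was found for 5178 genes (51%) and one below 0 for 4979 (49%). For scale, replicate 2 of the E10.5 controls was past 1.5-fold above replicate 1 for 331 of 11106 genes (2.98%) and below it for 354 (3.19%), and the corresponding numbers between the E10.5 null replicates were 1113 (9.7%) and 1889 (16.5%) of 11475 genes. The difference between genotypes at E9.5 thus took in fewer genes than the difference between replicates of 1 genotype at E10.5. The number also depends on scaling, since by total UMIs 164 genes were higher and 222 lower, and the median of all genes moved to 0.06, so that log2 ratios nearer than 0.06 to 0 have no fixed side.

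**Figure D1:**
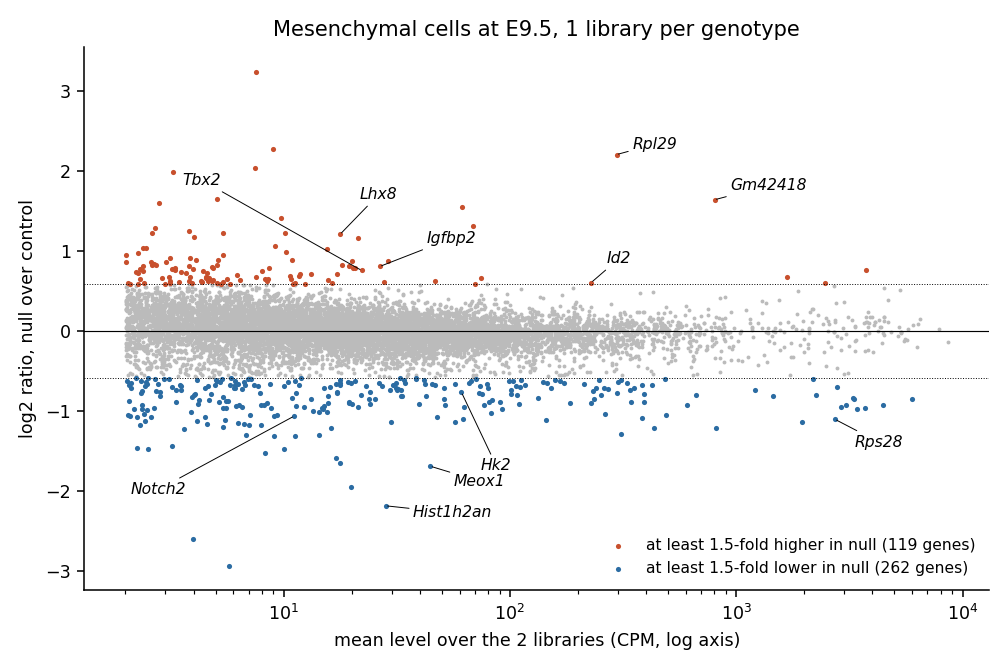
Log2 ratio of null over control for each gene with a mean of at least 2 CPM in mesenchymal cells at E9.5, against its mean level over both libraries on a log axis. Points are genes, dotted lines mark 1.5-fold, and 119 genes lie above and 262 below them; Xist is left out of the plot.

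Scaled by TMM, Id2 was the BMP target past 1.5-fold in null mesenchyme, and most other measured targets had smaller ratios above 0. Of the 12 measured members of the BMP target and feedback list 10 had a log2 ratio above 0 under each scaling tried, beside 51% of all genes, with a median of 0.39. The study picked several of these genes from these libraries, so the list is not independent evidence of its direction. Id2, an inhibitor of basic helix-loop-helix factors and a direct Smad target, stood at 181 CPM in the control and 275 CPM in the null (log2 ratio 0.60, 0.58 to 0.63), past 1.5-fold like 1.17% of all genes. It was under that fold with at least 2 marker UMIs, after thinning, in cells with Y-linked and no Xist UMIs and as a mean per cell. Msx2, a homeobox gene induced by BMP in arch mesenchyme, stood at 63.5 and 95.2 CPM (0.58, 0.54 to 0.63), just under that fold. When scaled by total UMIs it was past it, at 62.2 and 97.1 CPM. The related Id1 and Id3 were at 727 and 966 CPM and at 766 and 1025 CPM, log2 ratios of 0.41 and 0.42. These 4 genes therefore were higher in the null by 1.33-fold to 1.52-fold.

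The sequences next to the starts of Id2, Id3 and Msx2 are shown because these are 3 of the genes that set the direction of the list. Each is the 250 bases upstream of the start in RefSeq on GRCm38.p6 (mm10), read on the strand of the gene. Id2 is at chr12:25096093-25096342 on the minus strand, Id3 at chr4:136143572-136143821 on the plus strand and Msx2 at chr13:53472781-53473030 on the minus strand. Capitals mark GGCGCC, a GC-rich element bound by Smad1 and Smad5, which is its own reverse complement and so was searched on both strands at once.
Id2: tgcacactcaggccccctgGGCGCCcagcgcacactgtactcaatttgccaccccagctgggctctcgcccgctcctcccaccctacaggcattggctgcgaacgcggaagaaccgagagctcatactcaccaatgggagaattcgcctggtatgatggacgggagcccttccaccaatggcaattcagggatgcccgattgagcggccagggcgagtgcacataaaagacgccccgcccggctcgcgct
Id3: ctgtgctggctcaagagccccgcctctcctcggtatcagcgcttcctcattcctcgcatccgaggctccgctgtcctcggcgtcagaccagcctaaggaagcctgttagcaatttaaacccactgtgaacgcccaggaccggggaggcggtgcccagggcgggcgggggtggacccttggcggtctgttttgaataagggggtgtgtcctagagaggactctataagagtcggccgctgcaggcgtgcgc
Msx2: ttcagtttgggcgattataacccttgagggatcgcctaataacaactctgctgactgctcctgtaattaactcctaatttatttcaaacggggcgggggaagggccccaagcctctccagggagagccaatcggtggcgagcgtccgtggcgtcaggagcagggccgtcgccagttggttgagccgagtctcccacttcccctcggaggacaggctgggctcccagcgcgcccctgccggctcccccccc
The match in Id2 begins 231 bases before the start. Promoters of 10 of the 14 list genes were in the table used here, and 4 of them held the 6 letters, namely Grem1, Id2, Id4 and Smad9, beside 9.59% of all 32851 promoters (3149). A match is a description of these letters and not a binding site.

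Of the other members, Smad7, an inhibitory Smad induced by BMP and TGF-beta, stood at 20.8 and 29.7 CPM (0.51), and Smad6, its relative, had a log2 ratio of 0.37. Bambi, a pseudoreceptor that blocks BMP and is itself induced by it, was at 65.2 and 83.1 CPM (0.35), and Msx1 at 76.9 and 97.0 CPM (0.33). Id4 had a log2 ratio of 0.44 and Atoh8 of 0.24. The secreted antagonists went the other way, Dkk1 (a Wnt inhibitor) at 21.2 and 17.6 CPM (-0.27) and Noggin (Nog, a BMP antagonist) at 3.06 and 2.55 CPM (-0.26). Grem1 and Smad9 were under 2 CPM.

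Higher levels of Id2 and Msx2 came with more cells in which they were detected. After each member was thinned to 5000 UMIs, which left 4031 control and 5902 null cells and removed 24 and 157, Id2 UMIs were found in 49.6% (48.0 to 51.1%) of control and 65.8% (64.5 to 67.0%) of null cells, compared with 82.6% and 92.9% at full depth. Msx2 UMIs were found in 21.4% (20.1 to 22.7%) and 31.9% (30.7 to 33.1%), and in 43.6% and 59.8% at full depth. In cells of the same libraries with no marker or Sox10 UMI, thinned alike, the shares for Id2 were 67.1% and 70.8% and those for Msx2 19.5% and 21.8%. Id2 was thus no less widely detected outside mesenchyme, and the gap between genotypes was smaller there.

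The list was also set out in subsets of the same 2 libraries, which share their cells or their preparation and are given side by side. In cells with Y-linked and no Xist UMIs, 3127 in the control and 1871 in the null, the median of the list was 0.33, with Id2 and Msx2 both at 0.49. Members without Hox UMIs of paralog groups 2 and 3 gave 0.46, members with group 2 only 0.43 and members with group 3 0.39. In the 1303 control and 1235 null cells without marker and Sox10 UMIs the median was 0.05, with Id1 at 0.01, Id3 at -0.01, Msx1 at -0.01 and Smad7 at 0.02. Bambi was at 0.45 in those cells, a larger ratio than in mesenchyme.

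**Figure D2:**
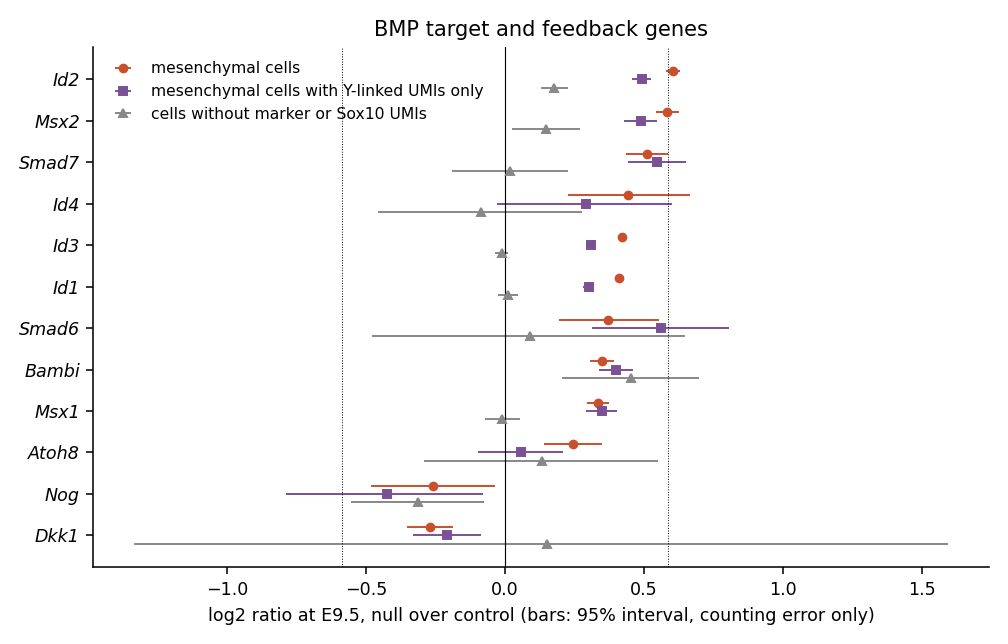
Log2 ratio of null over control at E9.5 for the 12 measured BMP target and feedback genes in mesenchymal cells, in mesenchymal cells with Y-linked UMIs and no Xist UMI, and in cells without marker or Sox10 UMIs. Bars are 95% intervals for counting error and dotted lines mark 1.5-fold; 10 of the 12 mesenchymal values lie to the right of 0.

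The upstream components of the pathway were closer to equal. None of the 10 measured BMP ligands, receptors and Smads was past 1.5-fold, and their median was 0.11. The receptors Bmpr1a (28.6 and 32.1 CPM, 0.17), Bmpr2 (0.14) and Acvr1 (0.22) and the signal transducers Smad1 (0.18) and Smad5 (0.13) had small log2 ratios above 0. Bmp4, a ligand, was at 2.92 and 2.14 CPM (-0.45). Bmp2, Bmp5 and Bmp7 were under 2 CPM in these cells, so that the ligands made by neighbouring tissue are not seen here.

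The FGF-MAPK list did not move as 1 group. Of 16 measured feedback and target genes 11 had a log2 ratio below 0, beside 49% of all genes, but 9 when scaled by total UMIs, and the median was -0.08. The study named some of these genes from these libraries, so this list is not independent evidence of a direction either. Spry2, a feedback inhibitor of receptor tyrosine kinases, was at 19.8 CPM in the control and 12.2 CPM in the null (-0.70, -0.79 to -0.60) and was the single member at least 1.5-fold lower, beside 2.58% of all genes, but was under that fold as a mean per cell. Its UMIs were found in 8.96% of thinned control and 6.01% of thinned null members (34.4% and 22.8% at full depth), and in 1.97% and 1.34% of the cells without markers. The ETS factors Etv1 (13.9 and 10.1 CPM, -0.46) and Etv4 (8.14 and 5.95 CPM, -0.45) and the kinase Lyn (4.08 and 2.77 CPM, -0.56) were lower but under 1.5-fold.

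Other members were near 0 or above it. Dusp6, a phosphatase that acts on ERK, was at 45.6 and 42.9 CPM (-0.09), Spry4 at -0.10, Myc at -0.08, Foxo1 at -0.04, Etv5 at -0.03 and Spry1 at 0.13. Egr1, an immediate early gene that also responds to dissociation, was at 1.56 and 3.82 CPM (1.29, 1.04 to 1.56) and was the single member at least 1.5-fold higher, beside 1.17% of all genes. The median was -0.0014 in members without Hox UMIs, -0.25 in those with group 2 and -0.33 in those with group 3. Spry2 was lower in each of these strata, at 17.6 and 11.6, 20.4 and 13.2, and 26.7 and 13.8 CPM. The receptors Fgfr1 (30.8 and 37.6 CPM, 0.29) and Fgfr2 (7.83 and 10.8 CPM, 0.46) were above 0, and none of the 5 measured FGF ligands and receptors was past 1.5-fold. Fgf8, Fgf3, Fgf9 and Fgf10 were under 2 CPM.

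Meox1, a homeobox gene of caudal arch mesenchyme and somites, was the single transcription factor among the 12 ranked genes with the lowest ratio. It had 6892 UMIs in the control and 3037 in the null, which is 68.0 and 21.0 CPM (log2 ratio -1.69, -1.75 to -1.63), a level 3.23-fold lower. The gene lies at chr11:101877510-101894374 on the minus strand. Its level followed the Hox code of the cell, with 7.70 CPM in control members without Hox UMIs, 83.7 CPM in those with group 2 and 258 CPM in those with group 3. The null values in the same strata were 2.65, 15.1 and 109 CPM, so the null was lower in each, by -1.54, -2.47 and -1.24 on the log2 scale.

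The shares of the strata differed less than the levels did. Members without Hox UMIs made up 62.4% of the control and 67.9% of the null, members with group 2 and no group 3 UMIs 21.9% and 18.96%, and members with group 3 UMIs 15.7% and 13.2%. A single Hox UMI set the stratum of 6.76% and 6.93% of members. Meox1 UMIs were found in 14.3% (13.3 to 15.5%) of thinned control and 6.29% (5.68 to 6.94%) of thinned null members, and in 25.4% and 12.1% at full depth. The cells without markers held it in 1.02% and 0.536%. Among cells with at least 2 Sox10 UMIs the level was 113 and 81.2 CPM.

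Lhx8, a LIM homeobox gene of the maxillary and mandibular mesenchyme, was the opposite case. It stood at 10.7 CPM in the control and 24.8 CPM in the null (1.21, 1.11 to 1.31), from 1088 and 3584 UMIs at chr3:154306294-154330659 on the minus strand. In members without Hox UMIs it was at 14.5 and 31.2 CPM, with group 2 at 6.09 and 14.1 CPM and with group 3 at 3.46 and 10.7 CPM. Both genotypes had most of it in Hox-negative cells, and the null was higher in all 3 strata. Thinned members with Lhx8 UMIs made up 5.04% and 10.7% (18.3% and 31.7% at full depth), and the cells without markers 0.0787% and 0.268%. Within the null library it was at 19.3 CPM in cells with Xist and no Y-linked UMIs and at 34.8 CPM in cells with the reverse, beside 10.5 CPM in control cells of the latter kind.

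Tbx2, a T-box repressor of the caudal arches and outflow tract, was at 16.5 and 27.8 CPM (0.76, 0.67 to 0.84), at chr11:85832551-85841948 on the plus strand. By stratum it was at 17.9 and 31.5, 13.3 and 19.7, and 15.3 and 22.3 CPM, higher in the null each time. Within the null it was at 22.1 CPM in cells with Xist UMIs and 38.1 CPM in cells with Y-linked UMIs, and at 15.97 CPM in control cells of the latter kind, so the 2 kinds of null cell differed by about as much as the genotypes. Tbx3, its paralog, was at 24.6 and 32.6 CPM (0.40), and Ebf3, a helix-loop-helix factor, at 14.6 and 21.1 CPM (0.53). Ebf1 (0.21), Ebf2 (0.04) and Tshz2 (0.06) were nearer to equal. Of the 7 measured genes of the caudal arch list 1 was past 1.5-fold in each direction, beside 1.17% of all genes higher and 2.58% lower. By total UMIs Ebf3 was also just past it, at 14.3 and 21.5 CPM.

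**Figure D3:**
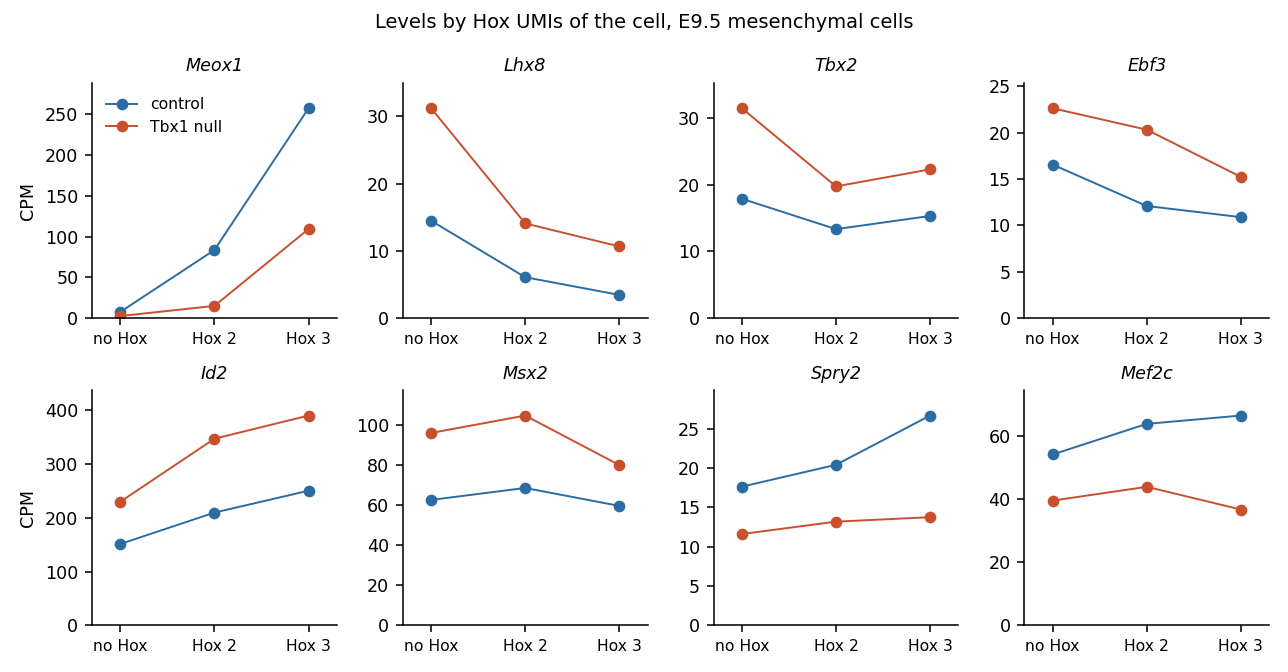
Level in CPM of 8 genes at E9.5 in mesenchymal cells without Hox UMIs of paralog groups 2 and 3, with group 2 UMIs only, and with group 3 UMIs, each axis starting at 0. Blue is the control library and orange the Tbx1 null library; the null lies below the control for Meox1, Spry2 and Mef2c in all 3 strata and above it for Lhx8, Tbx2, Ebf3, Id2 and Msx2.

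Genes that place arch cells along the body and dorsoventral axes differed little. Of the 5 measured Hox genes of paralog groups 1 to 3 none was past 1.5-fold, with Hoxa2 at -0.03, Hoxb2 at -0.22 and Hoxb3 at -0.50. Hoxd4, of a more caudal group, was at 7.75 and 4.87 CPM (-0.67), and it was under 1.5-fold with at least 2 marker UMIs, after thinning, as a mean per cell and when standardised over the Hox and Dlx strata. The 6 Dlx genes, which set dorsoventral identity, had a median of 0.09 and none past 1.5-fold, and Dlx5 stood at 81.2 and 88.9 CPM. Hand2, a ventral arch and heart factor, was at 39.0 and 41.0 CPM (0.07). Its relative Hand1 was at 6.87 and 3.89 CPM (-0.82). Ednra, the endothelin receptor that drives the ventral program, was at 9.86 and 6.72 CPM (-0.55). None of the 5 measured dorsal arch genes was past 1.5-fold.

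Hand1 differed between subsets of the members. It was at 18.3 and 3.71 CPM with group 2 Hox UMIs and at 5.39 and 1.29 CPM with group 3, while without Hox UMIs it was at 3.11 and 4.54 CPM. Within the null library it was at 2.34 CPM in cells with Xist UMIs and 7.58 CPM in cells with Y-linked UMIs, and the latter stood beside 7.05 CPM in the corresponding control cells. In those cells Hand1 was not lower in the null. The heart muscle genes Tnnt2 (11.0 and 0.180 CPM) and Myh7 (10.9 and 0.180 CPM) were also lower in the null with group 2. Without Hox UMIs they were higher, at 1.81 and 8.78 CPM and at 0.733 and 7.44 CPM. With group 3 they were higher in the null as well (0.340 and 2.59 CPM, 0 and 2.59 CPM), unlike Hand1. The part of heart muscle cells in the Hand1 levels was not tested.

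Among genes of the outflow tract, Gata3 was at 3.65 and 5.63 CPM (0.62) and Foxf1 at 4.43 and 6.42 CPM (0.54), while Mef2c, a MADS-box factor of muscle and crest, was at 58.5 and 39.9 CPM (-0.55). The 9 measured members had a median of 0.07, with Gata3 past 1.5-fold above, beside 1.17% of all genes, and Hand1 below, beside 2.58%. Gata3 was under 1.5-fold with doublets left out, and Foxf1 was past it when scaled by total UMIs (4.34 and 6.55 CPM). None of the 8 measured smooth muscle genes was past that fold, although Myl9, a myosin light chain, was at 21.1 and 14.6 CPM (-0.53) and Tpm1, a tropomyosin, at 236 and 173 CPM (-0.44).

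Retinoic acid and Notch genes held some of the larger differences. Aldh1a3, which makes retinoic acid, was at 11.6 and 5.96 CPM (-0.96, -1.09 to -0.83), and at 9.21 and 2.72 CPM in cells without markers. The retinoic acid binding protein Crabp1 was at 1432 and 1069 CPM (-0.42). Cyp26b1, which degrades retinoic acid, was at 2.25 and 3.56 CPM (0.66), but at -0.0062 in cells with Y-linked and no Xist UMIs and under 1.5-fold with at least 2 marker UMIs. Notch2, a Notch receptor, was at 15.1 and 7.19 CPM (-1.07, -1.18 to -0.95) and close to that ratio in each Hox stratum, at 15.2 and 7.29, 16.4 and 7.14, and 12.7 and 6.88 CPM. It was also at 17.0 and 6.76 CPM in cells without markers, so that its difference was in the libraries as a whole. Hes1, a Notch effector, was at 60.7 and 42.9 CPM (-0.50), whereas Notch1 (0.35) and Notch3 (0.40) lay above 0.

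Scaled by TMM, no member passed 1.5-fold among the 9 measured hedgehog genes (median 0.24, 8 above 0, with the target Gli1 at 1.64 and 2.42 CPM), the 16 Wnt genes (median 0.02), the 19 matrix and adhesion genes (-0.09), the 18 crest and mesenchyme transcription factors (0.01), the 13 imprinted growth genes (0.09), the 16 ribosome biogenesis genes (-0.13, 14 below 0) or the 8 p53 targets (-0.0075). Of all genes 51% were above 0 and 49% below. By total UMIs 12 ribosome biogenesis genes were below 0. On that scale Gli1 (1.60 and 2.47 CPM), Fzd1 (3.80 and 5.87 CPM) and the imprinted Cdkn1c (152 and 229 CPM) were past 1.5-fold. Of 18 guidance genes Epha3 alone was past it, at 6.62 and 10.2 CPM, beside 1.17% of all genes higher, and it was under 1.5-fold with doublets left out. Sfrp1, a secreted Wnt antagonist, was at 61.1 and 41.7 CPM (-0.55), Axin2, a Wnt target, at 12.9 and 9.59 CPM (-0.43), and the receptor Fzd1 at 3.88 and 5.75 CPM (0.57). These were the larger ratios of the Wnt list and ran in both directions.

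Igfbp2, which binds insulin-like growth factors, was at 19.3 and 33.8 CPM (0.81, 0.73 to 0.88) and was the single one of 13 measured PDGF, IGF and TGF-beta genes past 1.5-fold, beside 1.17% of all genes higher and 2.58% lower. In members with group 2 Hox UMIs it was at 16.6 and 55.8 CPM, its widest gap. Cdkn1c, an imprinted inhibitor of cyclin-dependent kinases, was at 155 and 225 CPM (0.53), and none of the 8 measured cell cycle inhibitors was past 1.5-fold. By total UMIs Cdkn1c was just past it, at 152 and 229 CPM. Among other imprinted genes Peg3 was at 358 and 499 CPM (0.48) and Nnat at 334 and 252 CPM (-0.41). Of 20 G2/M genes 17 were above 0 (median 0.16), beside 51% of all genes, and 16 to 18 under the other scalings. Cdk1, the mitotic kinase, was at 248 and 312 CPM. Of 20 S phase genes 12 were below 0 (median -0.09), beside 49% of all genes, but 10 when scaled by total UMIs. Of the 20, 2 were at least 1.5-fold lower, beside 2.58% of all genes, the chromatin remodeller Hells at 191 and 125 CPM and the replication licensing factor Cdc6 at 46.2 and 30.3 CPM. Both were under 1.5-fold when scaled by total UMIs, with doublets left out and as a mean per cell.

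Of 18 measured glycolysis and hypoxia genes 14 were above 0 (median 0.17), beside 51% of all genes, and 13 to 16 under the other scalings. Hk2, a hexokinase that traps glucose, was at 76.9 and 45.2 CPM (-0.77) and Pfkp at 8.97 and 13.6 CPM (0.60). Pfkp was under 1.5-fold with DESeq2 size factors, after thinning, in cells with Y-linked and no Xist UMIs and when standardised over the Hox and Dlx strata. Hk2 had nearly the same ratio in cells without markers (-0.78). Ddit4, a stress-induced inhibitor of mTOR, was at 14.9 and 25.7 CPM in mesenchyme (0.79, 0.70 to 0.87), and at 31.3 and 33.7 CPM in cells without markers. Of the 10 measured dissociation and stress genes Ddit4 and Egr1 were at least 1.5-fold higher, beside 1.17% of all genes, and Hspa1b, a heat shock gene at 2.97 and 1.76 CPM, at least 1.5-fold lower, beside 2.58%. Hspa1b was under that fold after thinning.

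The genes with the largest ratios over all 4665 that were ranked by size, those with a mean of at least 20 CPM, were mostly of other kinds. The 12 highest began with Gm42418 (390 and 1215 CPM, 1.64) and AY036118 (31.4 and 91.9 CPM, 1.55), noncoding genes that overlap ribosomal RNA, followed by Tpm3-rs7 (39.3 and 97.5 CPM), the nuclear receptor Nr1h5 (13.2 and 29.4 CPM), Lars2 (20.4 and 37.5 CPM) and Ndufaf1 (14.2 and 26.0 CPM). They ended with Igfbp2, Cox4i2 (15.1 and 26.2 CPM), Ddit4, Tbx2, AA465934 (57.7 and 91.5 CPM) and Tmem14c (36.8 and 56.7 CPM). Igfbp2, Ddit4 and Tbx2 are the genes among them with a known part in growth, stress or patterning. The next gene in the order was at 0.61.

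The 12 lowest were headed by the histone gene Hist1h2an (46.3 and 10.2 CPM, -2.19) and Meox1. They took in 4 further histone genes, Hist1h2ap, Hist1h4d, Hist1h3c and Hist1h2ae, the last at 521 and 244 CPM (-1.09). Polr2l, a small RNA polymerase subunit, was at 196 and 91.1 CPM (-1.11) and Atp5md, a small subunit of ATP synthase, at 658 and 316 CPM (-1.06). Gm10076, 1700120C14Rik and Gm2000 were among them as well, and the next gene after the 12 was at -1.04.

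Most of these ratios were seen in the other cells of the same libraries. In cells without markers Polr2l was at 176 and 84.8 CPM, in cells with at least 2 Sox10 UMIs at 197 and 87 CPM, and Gm42418 was at 519 and 2166 CPM and at 379 and 1005 CPM. Meox1, at 1.33 and 1.93 CPM in cells without markers, and Ddit4, Igfbp2 and 1700120C14Rik (14.2 and 12.1 CPM) did not have the mesenchymal ratio there. The 262 lower genes had a median of -0.77 in the cells without markers and the 119 higher genes a median of 0.53, beside -0.01 over all measured genes. The populations come from the same 2 preparations, so these are not independent values.

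**Figure D4:**
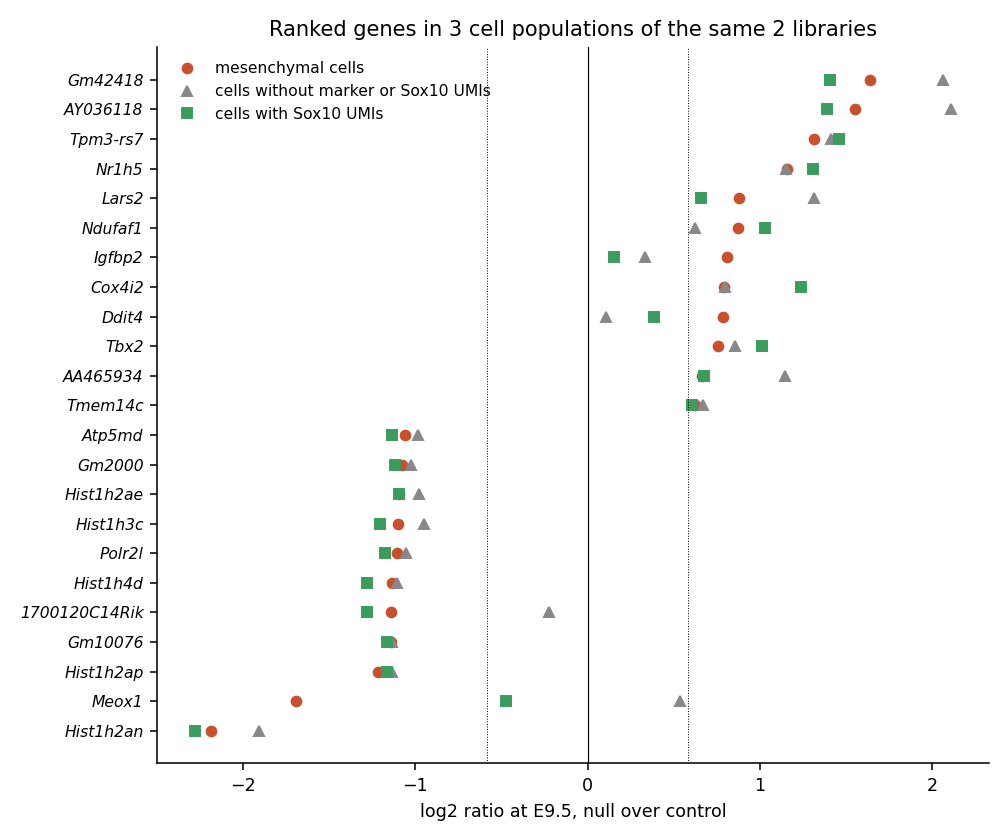
Log2 ratio of null over control at E9.5 for the 12 highest ranked genes and those of the 12 lowest that are named in the text, in mesenchymal cells, in cells without marker or Sox10 UMIs, and in cells with Sox10 UMIs of the same 2 libraries. Dotted lines mark 1.5-fold; most genes have like values in all 3 populations, while Meox1 is at -1.69 in mesenchyme and at 0.53 (-0.25 to 1.33) in cells without markers, where it is under 2 CPM.

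Genes with short annotated transcripts were lower more often than longer ones. The length of a gene is the median over its annotated protein-coding transcripts, or over all its transcripts where none is coding. It need not be the length of the form expressed here. Of 194 genes of at most 500 bases by this measure 44 were at least 1.5-fold lower (22.7%), beside 1.06 to 3.66% in the bins of longer genes. The lower set had a median length of 1266 bases beside 2079 over all. The same bin also held the largest share of genes at least 1.5-fold higher, 3.09%, beside 0.949 to 1.59% in the others. Among ribosomal protein genes, the 14 of at most 500 bases had a median of -0.47 with 6 at least 1.5-fold lower and 1 higher. The 66 that were longer by this measure had a median of 0.05. Also 6 of them were at least 1.5-fold lower, among them Rpl37 (835 bases by this measure, 4930 and 2519 CPM, -0.97), and 1 was higher. Over all genes 2.58% were lower and 1.17% higher. Rps28 was at 3728 and 1732 CPM (-1.11). Of 49 measured histone genes 22 were at least 1.5-fold lower, beside 2.58% of all genes, and 1 was higher, with a median of -0.46 in mesenchyme and -0.61 in cells without markers. Histone genes also differed between replicates at E10.5, with a median log2 ratio of replicate 2 over replicate 1 of 1.76 in controls and 1.57 in nulls. The part of library chemistry in these values was not tested.

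Cells of 1 sex were compared to see which values followed the pools. With cells that had Y-linked and no Xist UMIs, 194 of 10139 genes were at least 1.5-fold higher (1.91%) and 356 lower (3.51%). Within the null library, cells with Y-linked UMIs were past 1.5-fold above the 3281 cells with Xist and no Y-linked UMIs for 57 of 10196 genes (0.559%) and below them for 92 (0.902%). Rpl29 was at 105.4 CPM in the control and 486 CPM in the null, but within the null it was at 774 CPM in cells with Xist UMIs and 72.9 CPM in cells with Y-linked UMIs, beside 102 CPM in control cells of the latter kind. Tmem14c behaved alike, at 71.6, 36.7 and 36.0 CPM. Meox1 did not, at 21.6, 19.6 and 67.0 CPM, nor did Id2, at 289, 261 and 178 CPM, or Msx2, at 102, 90.8 and 62.1 CPM. In cells of like sex these 3 genes differed between the control and null libraries. Genotype, kit and pool still cannot be told apart there, nor can sex and embryo within a pool. The levels of cells of 1 sex given here are scaled by total UMIs and those of all members by TMM. At E10.5 Rpl29 was at 260 and 1118 CPM in the controls and at 73.0 and 1523 CPM in the nulls. Tmem14c was at 38.4 and 55.3 CPM in those controls and at 58.9 and 93.7 CPM in those nulls. Both thus also differed between replicates of 1 genotype, and the part of sex or embryo in their levels was not tested.

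The same cell rule was then applied at E10.5, where each genotype has 2 libraries that the E9.5 comparison did not use. Controls there are described as the second to sixth arches and nulls as the region without the first arch, wordings that may name 1 dissection. Null replicate 1 was made with kit version 3 and the other 3 libraries with 3.1. The pools differed in sex as well. Y-linked UMIs were found in 62.5% and 47.4% of control members and in 34.1% and 0% of null members. Xist UMIs were found in 33.3% and 47.8% of control members and in 70.0% and 99.6% of null members. The part of sex in the E10.5 values was not tested. The members also differed in kind, since cells with at least 2 UMIs of Dlx5 and Dlx6 made up 43.1% and 34.5% in the controls and 21.1% and 2.82% in the nulls, beside 43.4% and 47.2% at E9.5. Of 15976 genes tested with edgeR's quasi-likelihood test and Benjamini-Hochberg adjustment, 1 was higher in the null (0.00626%) and 10 lower (0.0626%), while 1109 and 847 had an unadjusted p under 0.05. Gpx3 rose, and Emx2, Emx2os, 3110099E03Rik, 2410018L13Rik, 4930512H18Rik, E330013P04Rik, Enpp2, Pcdh19, Smoc1 and Trim5 fell. With size factors of DESeq2 in place of TMM Gpx3 was not called and 8 genes were lower. At E9.5 7 of these 11 genes were under 2 CPM and so not measured, and none of the other 4 was past 1.5-fold. Both null libraries lay above both controls for 3521 genes (22%) and below them for 3985 (24.9%).

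No BMP target passed the test at this stage. Of the 14 list genes tested 9 had both nulls above both controls, beside 22% of all genes tested, and 1 both below, beside 24.9%. The median log2 fold change of the list was 0.65, and none of its genes was called. Neural progenitor genes differed between the same libraries, with all 8 higher in both nulls, beside 22% of all genes tested. Their summed levels were 153 and 34.5 CPM in the controls and 245 and 373 CPM in the nulls. The 7 neuronal genes summed to 188 and 95.4 CPM in the controls and to 181 and 650 CPM in the nulls. These sums overlapped, and 3 of the 7 genes had both nulls above both controls. The part of either set in the levels of the BMP genes was not tested. Id2 was at 296 and 304 CPM in the controls and 451 and 394 CPM in the nulls. Msx2 was at 31.7 and 23.6 CPM and at 88.9 and 32.8 CPM, and Id1 at 425 and 331 CPM and at 751 and 428 CPM. For each of these 3 genes the libraries did not overlap, although null replicate 2 lay near the controls for Msx2 and Id1. The log2 fold changes were 0.49 ± 0.234 for Id2 and 1.14 ± 0.433 for Msx2 (SE, n = 2 and 2), with adjusted p of 0.434 and 0.361 in edgeR's quasi-likelihood test with Benjamini-Hochberg adjustment.

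Of the other genes singled out at E9.5, Tbx2 was at 47.7 and 33.2 CPM in the controls and 76.3 and 52.1 CPM in the nulls at E10.5 (log2 fold change 0.67 ± 0.282 SE, edgeR adjusted p = 0.404). Ddit4 was at 17.9 and 18.7 CPM and at 42.1 and 37.3 CPM (1.11 ± 0.209 SE, edgeR adjusted p = 0.198). In both the nulls lay above the controls, the side they had at E9.5. Meox1 was at 13.7 and 13.1 CPM in the controls and 30.2 and 15.0 CPM in the nulls (0.76 ± 0.328 SE, edgeR adjusted p = 0.41), so that it was not lower in the null. Members with group 3 Hox UMIs, which had most Meox1 at E9.5, made up 39.2% and 28.6% of the controls and 61.0% and 78.0% of the nulls, and the part of this shift in the level was not tested. Lhx8 was at 18.3 and 14.6 CPM and at 31.4 and 6.96 CPM, and Igfbp2 at 145 and 99.4 CPM and at 107 and 191 CPM, and in both the groups overlapped. Gm42418 was at 2809 and 5178 CPM and at 181 and 447 CPM, the reverse of E9.5. Of the 119 genes higher at E9.5, 61 had a log2 fold change above 0 at E10.5 and 33 had both nulls above both controls, beside 22% of all genes tested. Of the 261 lower genes tested there, 158 were below 0 and 60 had both nulls below both controls, beside 24.9%. Over all measured genes 5115 of 10156 had the same sign at both stages. None of either set was called.

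**Figure D5:**
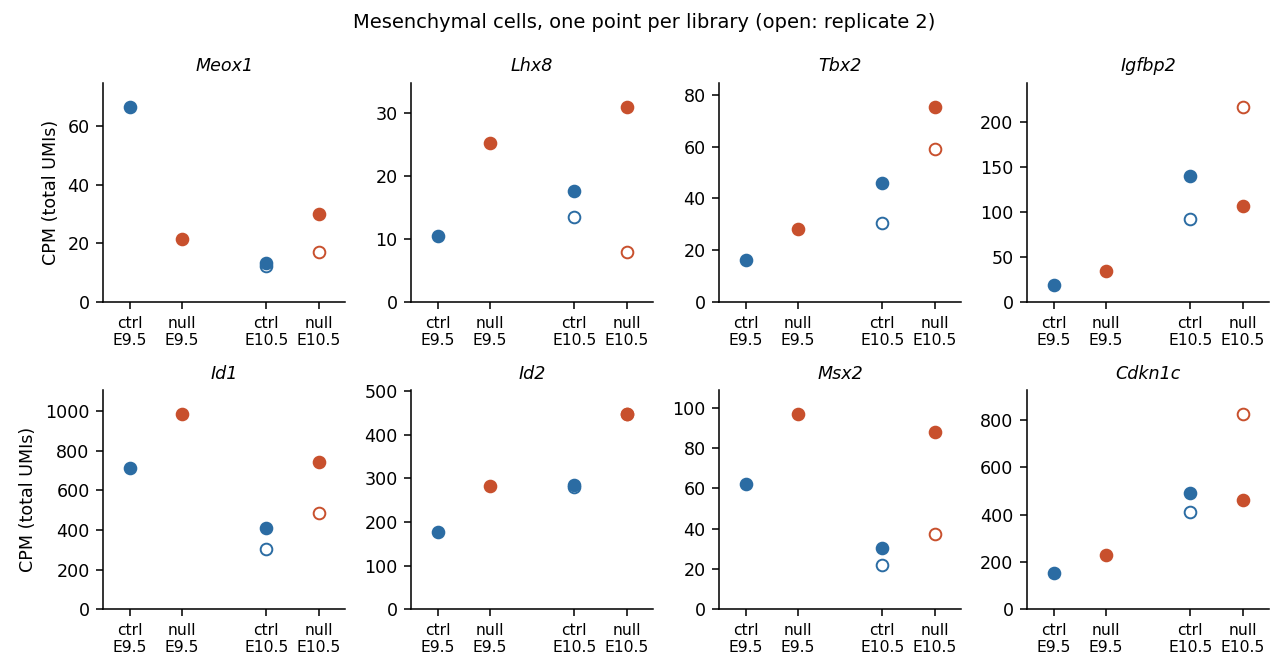
Level in CPM, scaled by total UMIs, of 8 genes in the mesenchymal cells of each library at E9.5 and E10.5, each axis starting at 0. Each point is a library, open points are replicate 2, blue is control and orange Tbx1 null; both nulls lie above both controls at E10.5 for Tbx2, Id1, Id2, Msx2 and Meox1, and the groups overlap for Lhx8, Igfbp2 and Cdkn1c.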

How the data were processed

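Droplet single-cell RNA sequencing of sorted neural crest cells was analysed for the control and Tbx1 null libraries at E9.5 and, for a test, for the 2 control and 2 null libraries at E10.5. Per the submitters' notes and the study's methods, reads were mapped to mm10 by the authors using Cell Ranger 6.0.1, and they deposited the UMI count of each of 32285 genes in each barcode called as a cell, without normalization. No further filter is stated. Totals were 203853100 and 234844769 UMIs over 9173 and 11301 barcodes at E9.5, and the filter kept 8612 and 10577 cells.

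Cells were chosen by the rule given at the opening, with doublets kept, and counts were summed per library with Python 3.11.15, numpy 2.4.6, pandas 2.3.3, scipy 1.17.1 and scanpy 1.11.5. At E9.5 ratios were described with a fold of 1.5 as the rule of size and exact binomial intervals. At E10.5 the sums were tested with edgeR 4.0.16 in R 4.3.3 (TMM, filterByExpr, glmQLFit, glmQLFTest), and a gene was called at an adjusted p (Benjamini-Hochberg) below 0.05. Nothing says that the replicates came from separate litters, so p-values measure the spread between these libraries, which are pools of embryos. Hox strata were cut by UMIs of paralog groups 2 and 3. Gene positions and transcript lengths come from GENCODE M21, which held 32158 of the genes, and promoters from RefSeq.

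Genes named in the text are the 12 highest and 12 lowest log2 ratios among genes with a mean of at least 20 CPM, Tbx1, the genes the study names and up to 4 members of each of 40 lists with the largest ratio. The ranking left out the genes of the cell rule, mitochondrial, ribosomal protein, haemoglobin and sex-linked genes, 103 in all, of which 23 were past 1.5-fold. Other list members, the subsets by sex, histone and ribosomal protein genes and transcript length were taken up after their values were seen. A few genes that this rule selects are not reported here. The members and lists were chosen with earlier results of these data known. The tests were checked on simulated counts with a fixed spread between replicates. That check does not cover the spread seen between these libraries. Alternatives were other scalings, UMIs added, filters, marker limits, doublet removal, thinning, means per cell, Hox and Dlx strata, cells of 1 sex, DESeq2 1.42.0, a replicate block and leaving out libraries. The adjustment for transcript length was added after seeing the data. Cells with Xist and no Y-linked UMIs could not be compared, because the control held 0 of them.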

Additional observations from a re-analysis of the deposited data

How the results depend on the processing

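With 119 genes at least 1.5-fold higher and 262 lower at E9.5, thinning to 5000 UMIs gave 206 higher and cells with Y-linked and no Xist UMIs 194. Genes with a mean of at least 10 CPM gave 38 and 158 of 6672, and no filter on low counts 3155 and 2547 of 20867. The split of calls was 164 higher and 222 lower with total UMIs and 109 and 273 with DESeq2 size factors. Adjusting for transcript length, an alternative chosen after seeing the data, gave 119 and 265. Of the 70 named genes past 1.5-fold, 65 to 70 stayed past it under the alternatives other than cells with Y-linked and no Xist UMIs, where Xist has no value and 57 of the other 69 stayed. In those cells the log2 ratio changed sign for Tmem14c (-0.030), Rpl29 (-0.54), Hand1 (0.048), Cyp26b1 (-0.0062), Eif2s3y (0.44), Ddx3y (0.28), Kdm5d (0.15), Uty (0.30), Tnnt2 (-5.40) and Myh7 (-5.43). The median of the BMP target list lay between 0.33 and 0.45 over the alternatives and that of the FGF-MAPK list between -0.11 and -0.0069. The cause was not tested for any of these.

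The mesenchymal share of 47.1% in the control became 50.0% with at least 2 marker UMIs, 44.3% with 5 and 55.8% with at most 1 Sox10 UMI. That of 57.3% in the null became 60.3%, 54.0% and 65.1%, and 59.5% after thinning. At E9.5 the share was higher in the null under each setting. At E10.5, where the first arch was left out, the same rule gave 46.5% and 69.6% in the controls. The nulls were at 32.1% and 23.0% there, below both controls, and the control replicates lay far apart.

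The calls at E10.5 (1 higher, 10 lower) depended on the fit. Size factors of DESeq2 in edgeR gave 0 higher and 8 lower, no filter 542 and 320, and DESeq2 236 and 132. Leaving out 1 library gave 8 to 485 higher and 48 to 294 lower, where the lone library of a group is assumed to vary like the other group. The highest number of higher genes came without null replicate 1, the library of kit version 3. The lowest numbers came without control replicate 2, at 8 and 48. The replicate block gave 228 higher and 190 lower, but same-numbered libraries did not deviate together (correlation 0.0118), so the numbers do not pair the samples. Depth limits genes under 2 CPM at E9.5, and 1 library per genotype limits every ratio there.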
